A study of Mus musculus with 48 samples.

Results

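Between week 2 and week 3 after birth, mouse pups begin to take solid food, and the lining of their small intestine changes with it. The comparison described here asked whether that step was the same at both ends of the small intestine. For each gene, the log2 change from week 2 to week 3 in the ileum had the change in the duodenum subtracted from it. This difference is called the interaction. A positive value means that the gene went up more, or down less, in the ileum. The groups were duodenum at week 2, ileum at week 2, duodenum at week 3 and ileum at week 3, with 3 samples in each. These are 12 of the 48 samples of the series, which covered 8 ages. All 4 groups were untreated C57Bl/6J mice of both sexes, with no difference in genotype. Each sample was a whole-thickness piece of 2 cm, taken from the duodenum right after the stomach outlet or from the ileum right before the caecum, and its total RNA was sequenced. The labels word the housing as "standard germ-free", which could mean germ-free or specific pathogen free. Pups stayed with the dam until day 21 and were then given chow. Whether the week 3 mice had eaten chow before sampling is not stated. The labels do not say that each sample came from a separate animal, so the p-values measure only the spread between these samples.

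The duodenum receives food together with bile and pancreatic juice, and the ileum is the last stretch of the small intestine, where bile acids and vitamin B12 are taken back up. In suckling rodents the enterocytes of the distal small intestine take up milk proteins whole into large lysosomes, and the enzymes that digest milk sugar dominate the surface. At weaning, these cells are replaced from the crypts by enterocytes of the adult kind, which carry sucrase and other enzymes for starch, sugar and peptides on their brush border.

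Levels are given as CPM, a gene's counts per megacount of its library, with library sizes adjusted by edgeR's TMM factors. The model also held the samples of day 8 and week 4, 24 in all, so that each gene's spread rested on 16 residual degrees of freedom. A gene is called when its p from edgeR's quasi-likelihood test, adjusted by the Benjamini-Hochberg method over the 19899 genes tested, was under 0.05. Errors of log2 values are standard errors, with 3 samples per group. The 12 samples held 18843625 to 59811501 counts, of which 13.4% to 23.7% were mitochondrial. At week 3 every ileum library was smaller than every duodenum library. The 5 duodenum markers summed to 318 to 504 CPM in the duodenum at week 2, 327 to 338 CPM there at week 3, and 49.95 to 83.7 CPM in the 6 ileum samples. The 4 ileum markers summed to 8.65 to 46.0 CPM in the 6 duodenum samples, to 275 to 373 CPM in the ileum at week 2 and to 1162 to 1476 CPM in the ileum at week 3. The 5 epithelial markers summed to 3958 to 4376 CPM at week 2 and 5447 to 6096 CPM at week 3 in the duodenum. In the ileum they summed to 3667 to 4034 CPM and 7325 to 9689 CPM. Krt19 and Krt8, which are 2 of these 5, were among the called genes. The Krt8 call was lost without ileum week 2 number 1 or 2 or ileum week 3 number 2 (adjusted p up to 0.0661) and with all 48 samples (0.322). Fgf15 and Slc10a2 are 2 of the 4 ileum markers. The 6 smooth muscle markers summed to only 5.81 to 53.4 CPM, a low level for whole-thickness bowel. In the duodenum they had 5.81 to 8.91 CPM at week 2 and 10.4 to 13.0 CPM at week 3. In the ileum they had 15.7 to 28.8 CPM and 35.0 to 53.4 CPM. The 5 markers of the enteric nervous system summed to 39.8 to 54.7 CPM at week 2 and 13.0 to 17.3 CPM at week 3 in the duodenum. Their ileum sums were 110 to 120 CPM and then 14.7 to 21.3 CPM. The members did not all move with these sums. In the ileum 1 of the 5 was called falling, and the median step was 0.27 on the log2 scale. In the duodenum 1 was called falling and 1 rising, with a median step of -0.09. Among the ileum samples of week 4, number 1 stood apart, with 139 CPM of the 4 ileum markers where the others had 1963 and 2324 CPM. It enters no step from week 2 to week 3, but it enters the estimate of the spread and every statement about week 4. In pieces of whole tissue, fewer cells of a type and less RNA per cell cannot be told apart.

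The step from week 2 to week 3 differed between the regions for 412 of the 19899 genes, which is 2.07%. Of these, 248 (1.25%) had a positive interaction and 164 (0.824%) a negative one, so 60.2% were positive. That share was 46.3% of 602 genes without ileum week 4 number 1 and 40.6% of 672 genes over the 40 samples for which the authors deposited normalized values. The median interaction over all genes moved from 0.04 to -0.08 and to -0.09 in those fits, so the balance of positive and negative calls depended on which samples were in the model. With only the 12 samples of week 2 and week 3 the share was 60.6% of 584 genes. It was 62.0% with DESeq2, 59.2% with relative log expression size factors and 70.8% with all 48 samples. With all 48 samples only 113 genes were called, 104 of them among the 412. That fit includes the samples labelled day 6 that went against their labels in an earlier analysis, which the main fit left out. How far they account for the calls of single genes lost with all 48 samples was not tested. The main fit did not pair duodenum and ileum samples. With a replicate block, which paired those of one age and number, 404 genes were called, 322 of them among the 412. The separate steps were far wider than their difference. In the ileum 6474 genes (32.5%) were called, 3122 rising (15.7%) and 3352 falling (16.8%). In the duodenum 4714 genes (23.7%) were called, 1960 rising (9.85%) and 2754 falling (13.8%).

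The most common pattern was a change in the same direction but of unequal size, found for 173 genes (0.869% of those tested). In 156 of them the ileum moved further, with 86 rises and 70 falls, and in 17 the duodenum moved further. Another 69 genes (0.347%) changed in the ileum only, here meaning a called change of at least 1 on the log2 scale in the ileum beside an uncalled change under 0.5 in the duodenum. Of these, 39 rose and 30 fell. The mirror pattern, a change in the duodenum only, held for 25 genes (0.126%), 8 of which rose and 17 fell. In 32 genes (0.161%) both steps were called and went in opposite directions. The other 113 fell between these definitions. The regions came closer in most of these genes. The absolute difference between ileum and duodenum was smaller at week 3 than at week 2 for 265 of the 412 genes and larger for 147. The regions differed by the test at week 2 but not at week 3 for 218 genes, and at week 3 but not at week 2 for 108. Over all genes tested, the regions differed for 29.7% at week 2 and 19.7% at week 3. How many of all genes tested had a smaller difference at week 3 was not counted, and the 412 were chosen on the same samples. The narrowing is therefore not shown to be particular to the called genes. In 48 genes the difference was called at both ages with its sign crossed.

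**Figure D1:**
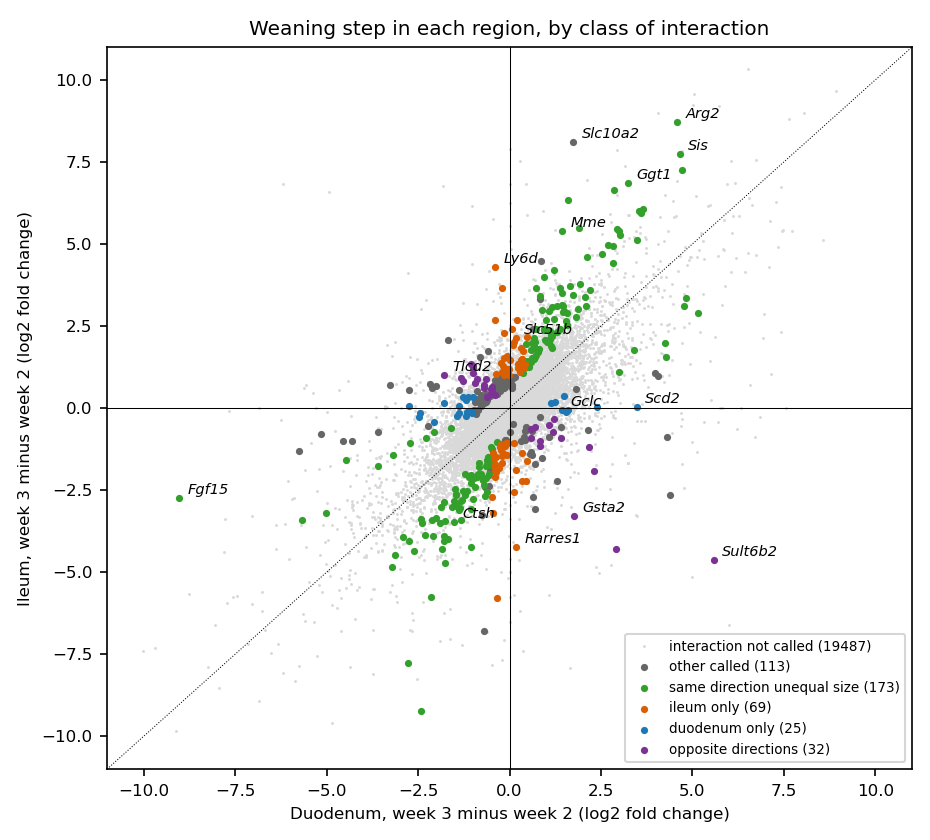
Each point is a gene, with its log2 change from week 2 to week 3 in the duodenum on the horizontal axis and in the ileum on the vertical axis; colours mark the patterns of the 412 called genes, and the diagonal marks equal steps. The 32 genes of opposite directions lie in the upper left and lower right, with Sult6b2 farthest out at 5.59 and -4.64.

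The called genes were counted in lists of intestinal genes grouped by function. Bile acid transport and signalling had 4 of 10 members called, arginine and citrulline synthesis 4 of 11, and brush border enzymes for sugar and peptides 5 of 17. Goblet cells and mucus had 2 of 11, ion and water transport 2 of 15 and xenobiotic metabolism 3 of 26. A single member was called among 10 genes of sugar transport, 12 of epithelial defence, 12 of terminal glycosylation, 15 enteroendocrine hormones, 17 genes of vitamin A, iron and calcium handling, 19 of suckling protein uptake, 20 of fat absorption and 21 of cholesterol synthesis. These counts stand beside 2.07% of all genes and were not tested as sets.

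Other lists had no called difference between the regions in edgeR. Paneth cell genes had 0 of 17 called (1 at an unadjusted p under 0.05, 0 in DESeq2), Reg lectins 0 of 7 (0 and 0), and fatty acid oxidation 0 of 18 (2 and 1). Amino acid and peptide transport had 0 of 13 (2 and 1), maturation and regional transcription factors 0 of 21 (1 and 0), and crypt stem cell genes 0 of 10 (1 and 0). T cell genes had 0 of 16 (4 and 1), B cell genes 0 of 11 (1 and 0), MHC class II genes 0 of 8 (0 and 0), and macrophage and mast cell genes 0 of 14 (3 and 1). The 9 tuft cell genes had 0 called (4 and 1), the 8 genes of sphingolipid and phospholipid digestion 0 (4 and 3), and the 11 imprinted growth genes 0 (0 and 0). For comparison, 12.7% of all genes had an unadjusted p under 0.05 and DESeq2 called 773 genes. Over all genes tested, 15.7% were called rising in the ileum and 9.85% in the duodenum. Cell division genes rose in 11 of 15 cases in the ileum and in 3 of 15 in the duodenum, yet 0 interactions were called (2 at an unadjusted p under 0.05, 0 in DESeq2), so the steps were not shown to differ. In the cholesterol synthesis list 16 of 21 genes rose in the ileum and 5 in the duodenum, 9 interactions had an unadjusted p under 0.05, and DESeq2 called 1. Hmgcs1, an early enzyme of the pathway, was its 1 called member in edgeR, at 0.92 ± 0.24 (adjusted p = 0.0468). That call was lost in 9 of the 12 single-library removals (all but duodenum week 2 number 1, duodenum week 3 number 1 and ileum week 3 number 3), with values of 0.759 to 1.02, and its adjusted p was 0.376 with all 48 samples. Interactions were above 0 in 15 of 15 cell division genes, 18 of 21 cholesterol genes, 18 of 20 genes of fat absorption and 15 of 15 enteroendocrine hormones, beside 10707 of all 19899 genes. Other lists leaned the other way, with 1 of 16 T cell genes, 4 of 17 Paneth cell genes and 4 of 14 macrophage and mast cell genes above 0. These lists were picked after their values were seen, and the leanings were not tested.

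**Figure D2:**
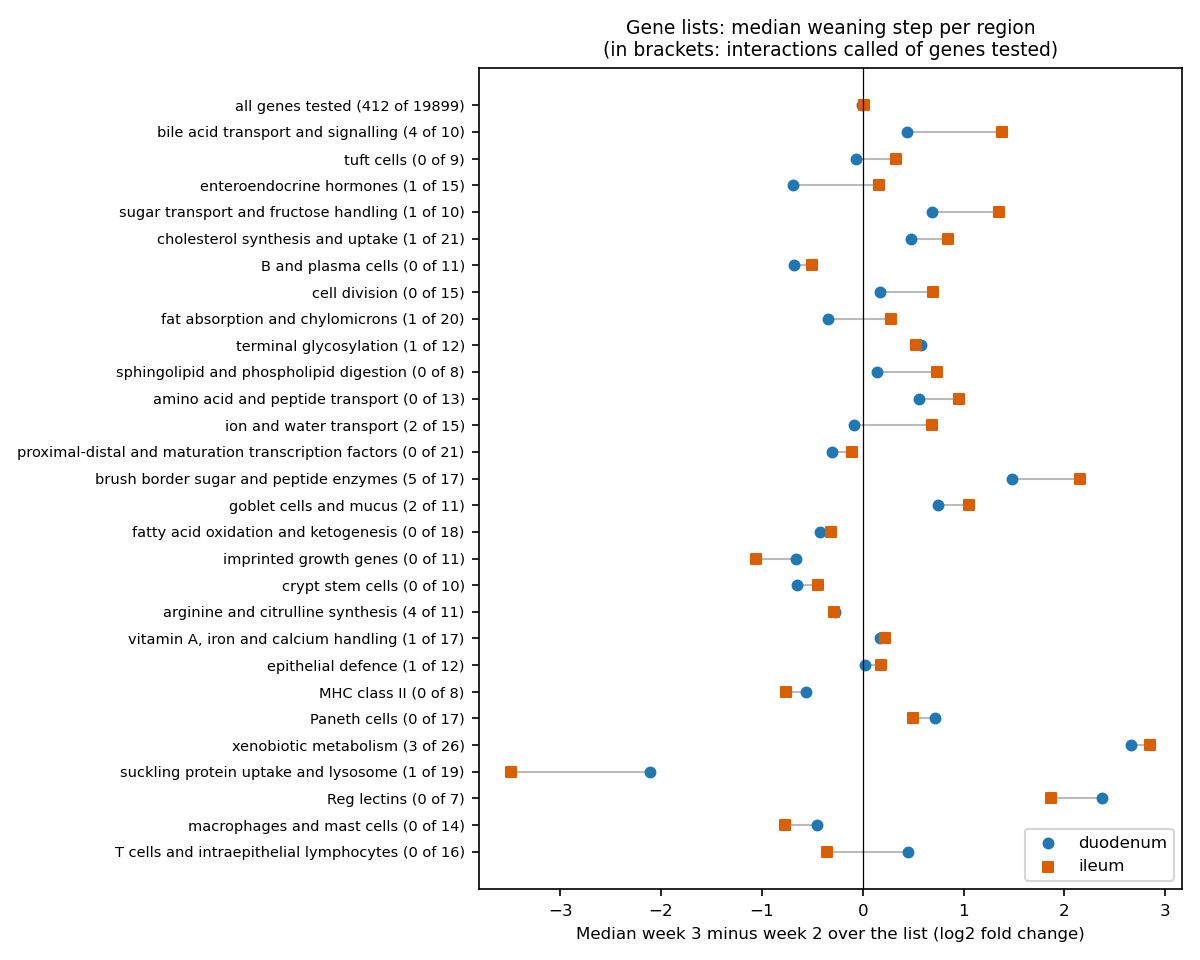
Median log2 change from week 2 to week 3 of each gene list, with the duodenum and the ileum as separate points and the number of tested members beside the name. The suckling uptake list has the lowest median in the ileum, -3.48 against -2.11 in the duodenum, and the xenobiotic list the highest, 2.85 against 2.66.

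Most brush border enzymes rose in both regions, with 12 of 17 called rising in each and 1 called falling in the duodenum. Over all genes tested, 15.7% were called rising in the ileum and 9.85% in the duodenum. The 5 called interactions, all positive, were Sis, Ggt1, Mme, Treh and Anpep. The median member of the list rose by 2.16 on the log2 scale in the ileum and 1.48 in the duodenum, with a median interaction of 0.23. Sis encodes sucrase-isomaltase, which splits sucrose and starch fragments at the enterocyte surface. Its gene lies at chr3:72888557-72967863 (mm10, minus strand). In the duodenum its level was 158, 115 and 124 CPM at week 2 but 3626, 3389 and 2987 CPM at week 3. In the ileum it was 16.3, 21.4 and 22.8 CPM, then 4324, 4485 and 4100 CPM. All ileum samples lay below all duodenum samples at week 2 and above them at week 3. The rise was 7.74 ± 0.38 in the ileum and 4.66 ± 0.33 in the duodenum, an interaction of 3.08 ± 0.41 (adjusted p = 0.000191). At week 3 the regions were not shown to differ (0.37 ± 0.29, adjusted p = 0.384).

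Ggt1, a gamma-glutamyl transferase that breaks down glutathione outside the cell (chr10:75561604-75586200), behaved alike. At week 2 it stood at 56.7, 16.8 and 31.4 CPM in the duodenum and at 2.86, 2.39 and 2.80 CPM in the ileum. By week 3 the levels overlapped, at 295, 379 and 312 CPM against 202, 401 and 330 CPM. Its interaction was 3.62 ± 0.46 (adjusted p = 0.000132). Mme, the membrane peptidase neprilysin (chr3:63241537-63386030), was already abundant in the duodenum at week 2, with 491, 295 and 399 CPM, and scarce in the ileum, with 12.5, 6.4 and 9.6 CPM. It reached 1015, 1167 and 1015 CPM in the duodenum and 254, 503 and 447 CPM in the ileum at week 3, so the ileum stayed lower in every sample. The interaction was 3.97 ± 0.51 (adjusted p = 0.000173), from a rise of 5.40 ± 0.42 in the ileum and 1.43 ± 0.35 in the duodenum. Treh, trehalase, went from 3.84, 3.34 and 4.22 CPM to 91.8, 227 and 155 CPM in the ileum and from 47.1, 22.4 and 29.3 CPM to 246, 318 and 220 CPM in the duodenum. Its interaction was 2.39 ± 0.49 (adjusted p = 0.0103). With all 48 samples in the model the adjusted p was 0.262 for Mme and 0.176 for Treh at nearly the same size. Anpep, aminopeptidase N, had an interaction of 1.48 ± 0.35 (adjusted p = 0.0271) and was named after its values were seen.

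CDX proteins are homeodomain factors of the intestinal epithelium, and a CDX site in the Sis promoter is textbook knowledge. Shown here are the 250 bases before the RefSeq start of Sis and of Fabp2, an abundant fatty acid carrier described further on, because both rose further in the ileum and both windows hold the letters TTTATNG or their reverse complement. The sequences are from RefSeq on GRCm38.p6, printed 5′ to 3′ along the gene's strand, and capitals mark the match. The Sis window is chr3:72967864-72968113 on the minus strand, and its match begins 52 bases before the start. The Fabp2 window is chr3:122894822-122895071 on the plus strand, and its match begins 65 bases before the start.
Sis: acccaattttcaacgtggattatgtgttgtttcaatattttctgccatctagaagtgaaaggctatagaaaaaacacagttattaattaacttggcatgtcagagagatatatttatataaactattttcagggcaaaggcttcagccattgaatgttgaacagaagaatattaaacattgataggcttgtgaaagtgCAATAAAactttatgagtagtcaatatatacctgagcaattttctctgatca
Fabp2: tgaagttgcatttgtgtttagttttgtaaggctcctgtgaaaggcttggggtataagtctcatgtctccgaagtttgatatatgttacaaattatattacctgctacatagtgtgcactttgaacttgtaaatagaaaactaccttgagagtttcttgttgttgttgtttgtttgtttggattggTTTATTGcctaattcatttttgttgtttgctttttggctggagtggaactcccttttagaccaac
Across 13066 tested genes with a promoter, 1115 (8.53%) held these letters on either strand within 250 bases. They were found in 11 of 65 promoters (16.9%) of the genes that rose further in the ileum, in 2 of 56 (3.57%) of the ileum-only genes, in 0 of 16 of the duodenum-only genes and in 3 of 26 (11.5%) of the opposite genes. Further letters were searched in the same way. In the 65 promoters, against all, TGACNNNGC (antioxidant response core) was in 15.4% against 13.4% and the letters AGATAA, of GATA factors, in 13.8% against 8.37%. CAAAGTCCA (HNF4) was in only 2 of the 65 promoters (3.08%) against 76 of 13066 (0.582%). A match of letters is a description and shows no binding, and the shares were not tested.

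**Figure D3:**
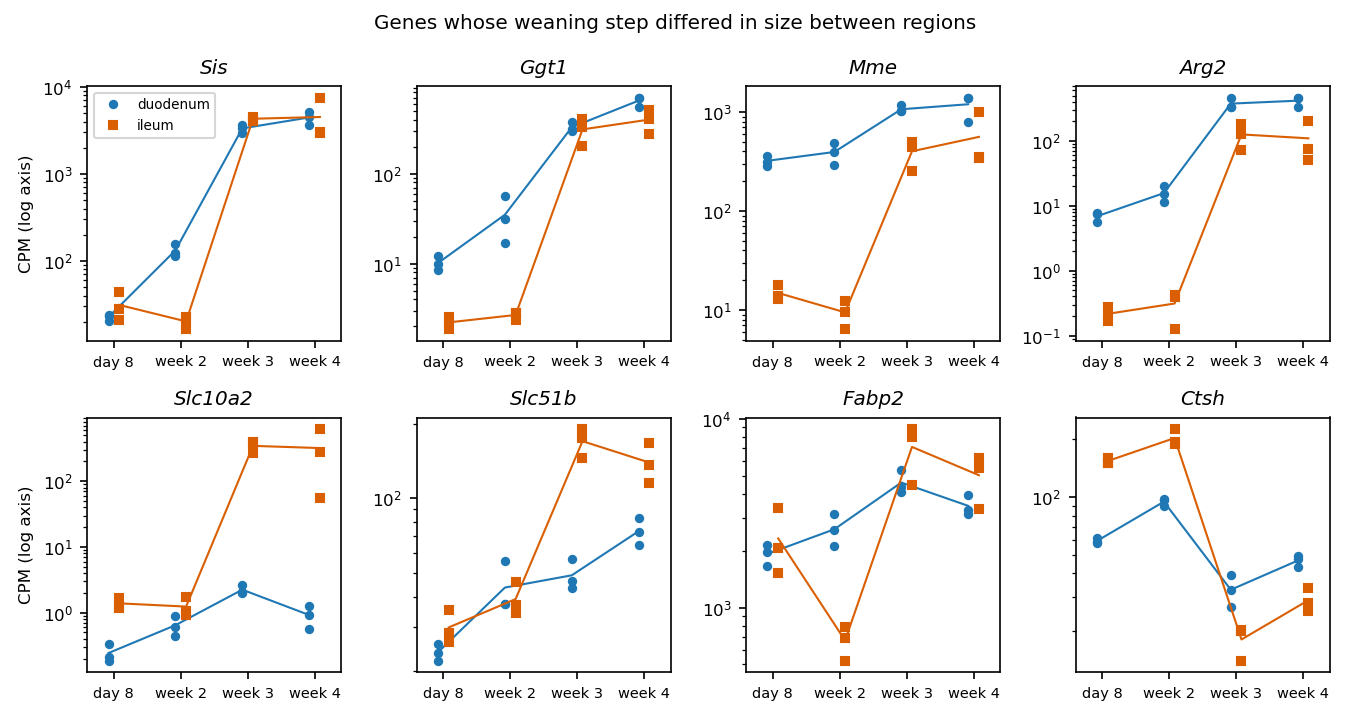
CPM of 8 genes on a log axis against age, with each sample as a point and lines through the group means, duodenum and ileum in separate colours. For Sis, Ggt1 and Fabp2 the ileum lies below the duodenum at week 2 and level with or above it at week 3, whereas for Slc10a2 and Slc51b the regions overlap or nearly so at week 2 and separate at week 3.

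Members of the bile acid list moved in different ways, and for Slc10a2 and Slc51b the regions were apart by the test at week 3 but not at week 2. Slc10a2, the sodium-dependent bile acid transporter of the ileal brush border (chr8:5083219-5105351), was at or below 1.72 CPM everywhere at week 2, with 0.436, 0.602 and 0.897 CPM in the duodenum and 0.926, 1.72 and 1.06 CPM in the ileum. At week 3 the ileum had 391, 379 and 264 CPM and the duodenum 2.62, 2.09 and 2.00 CPM. The ileum rose by 8.09 ± 0.68 and the duodenum by 1.74 ± 0.68, the latter not called (adjusted p = 0.0718). The interaction was 6.35 ± 0.96 (adjusted p = 0.00144). Slc51b, a subunit of the transporter that passes bile acids on to the blood (chr9:65412714-65422955), changed in the ileum only. Its ileum samples went from 34.3, 37.1 and 45.8 CPM to 190, 175 and 145 CPM, while its duodenum samples overlapped, at 55.6, 37.4 and 37.4 CPM and then 56.8, 46.1 and 43.2 CPM. The interaction was 1.95 ± 0.25 (adjusted p = 0.000132). Fabp6, the ileal bile acid binding protein, rose in the ileum from 1.72, 8.08 and 4.51 CPM to 823, 1021 and 826 CPM, by 7.53 ± 1.09 (adjusted p = 6.14e-05). It had no count in the duodenum at week 2 and at most 0.48 CPM at week 3, so no fold is given there and its interaction cannot be read. Some uncalled members are named after their values were seen. Baat, which joins bile acids to taurine or glycine, had a mean of 1.03 CPM in the ileum and 0.122 CPM in the duodenum at week 2. That duodenum level is too low for a usable fold. At week 3 the means were 4.45 and 1.69 CPM, and the ileum was above the duodenum by 1.40 on the log2 scale. For the export pump Abcc3 the regional difference was -0.97 at week 2 and -0.37 at week 3 on that scale. Nr0b2, a nuclear receptor that represses bile acid synthesis, was not shown to differ between the regions at either age.

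Fgf15, the hormone by which the ileum restrains bile acid synthesis in the liver, fell in both regions. Ileum samples went from 241, 330 and 268 CPM to 33.3, 46.5 and 44.5 CPM, a fall of 2.76 ± 0.56 on the log2 scale. Duodenum samples went from 9.69, 30.6 and 14.9 CPM to between 0 and 0.051 CPM, too few counts for a fold. The positive interaction (adjusted p = 0.0171) rests on those near-empty duodenum samples. Its adjusted p reached 0.0682 when duodenum week 3 number 1, 2 or 3 was left out, each of which ended the call, and was 0.177 with all 48 samples. Abcc2, an export pump for conjugated compounds, moved the other way. It fell in the ileum from 1745, 2390 and 2421 CPM to 938, 683 and 822 CPM and had 518, 509 and 419 CPM and then 819, 775 and 630 CPM in the duodenum, a change of 0.62 ± 0.23 that was not called (adjusted p = 0.0515). The interaction was -2.05 ± 0.33 (adjusted p = 0.00113, or 0.34 with all 48 samples). At week 2 the ileum was higher by 2.18 ± 0.24, and at week 3 the regions overlapped.

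The newborn intestine makes citrulline and arginine from other amino acids, an ability it loses around weaning when Arg2, which splits arginine, is induced. Arg2 (chr12:79130777-79156301) rose from 20.1, 11.6 and 15.3 CPM to 331, 464 and 330 CPM in the duodenum and from 0.423, 0.125 and 0.386 CPM to 71.5, 179 and 126 CPM in the ileum. The ileum stayed below the duodenum at both ages, although its rise was larger by 4.13 ± 0.69 (adjusted p = 0.00257, or 0.0795 with all 48 samples). The negative calls were Asl, argininosuccinate lyase, at -0.99 ± 0.23 (adjusted p = 0.0225), and Prodh, proline dehydrogenase, at -1.11 ± 0.25 (adjusted p = 0.0204). Both were less secure, with adjusted p up to 0.0758 in 6 single-library removals for Asl and up to 0.0885 in 5 for Prodh, and 0.538 and 0.21 with all 48 samples. The libraries were duodenum week 2 number 2 and 3, duodenum week 3 number 1 and 2, and ileum week 2 number 2 and 3 for Asl. For Prodh they were duodenum week 2 number 3, duodenum week 3 number 1 and 2, ileum week 2 number 2 and ileum week 3 number 2. Ass1, argininosuccinate synthase, fell in both regions, by 4.13 ± 0.35 and 3.43 ± 0.34, with an uncalled interaction of -0.70 ± 0.44 (adjusted p = 0.572).

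Gpt, an alanine aminotransferase (chr15:76695716-76699686), was one of the genes with the smallest interaction p. Its ileum samples went from 18.3, 12.4 and 17.8 CPM to 181, 252 and 180 CPM and its duodenum samples from 164, 78.8 and 104 CPM to 209, 196 and 164 CPM. The interaction was 2.95 ± 0.33 (adjusted p = 4.9e-05). A difference of 2.84 ± 0.24 in favour of the duodenum at week 2 had shrunk to 0.11 ± 0.23 in favour of the ileum at week 3, which was not called (adjusted p = 0.776).

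Among the 20 genes of fat absorption, Fabp2 was the called one. It encodes the intestinal fatty acid binding protein of enterocytes (chr3:122895072-122899506). In the duodenum it had 3122, 2117 and 2563 CPM at week 2 but 4079, 5360 and 4349 CPM a week later. In the ileum it had 693, 523 and 793 CPM and then 4459, 8822 and 8015 CPM, all above the duodenum's middle sample. The interaction was 2.58 ± 0.41 (adjusted p = 0.000993). At day 8 the regions had overlapped, with 2158, 1655 and 1966 CPM in the duodenum and 3376, 1534 and 2064 CPM in the ileum, so the gap at week 2 had opened after day 8 (interaction of that earlier step -2.23 ± 0.40, adjusted p = 0.0222). The earlier step uses the same week 2 samples, and its call for Fabp2 was not followed through the alternative fits. The number of genes called at that step fell to 2 without ileum day 8 number 3.

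The programme of the suckling enterocyte fell in both regions, with 17 of 19 genes called falling in the ileum and 16 of 19 in the duodenum. Over all genes tested, 16.8% were called falling in the ileum and 13.8% in the duodenum. The median change of the 19 genes was -3.48 in the ileum and -2.11 in the duodenum on the log2 scale. Fcgrt, the receptor that carries milk antibodies across the epithelium, fell by 4.75 ± 0.33 in the ileum and 5.02 ± 0.34 in the duodenum, and Prdm1, the repressor that holds the neonatal programme in place, by 3.58 ± 0.19 and 3.19 ± 0.18. Neither interaction was called, at 0.26 ± 0.40 (adjusted p = 0.895) and -0.39 ± 0.24 (adjusted p = 0.567).
Ctsh, the lysosomal protease cathepsin H (chr9:90054152-90076089), was the called member of the list and had the smallest interaction p of all genes. It went from 188, 195 and 226 CPM to 20.3, 20.0 and 14.0 CPM in the ileum and from 96.9, 89.2 and 97.5 CPM to 32.8, 39.0 and 26.8 CPM in the duodenum. The ileum was above every duodenum sample at week 2 and below every one at week 3, with an interaction of -1.96 ± 0.20 (adjusted p = 4.45e-05). Creg1, a glycoprotein of lysosomes that is outside the list and was named for its small p, went from 108, 124 and 130 CPM to 23.0, 16.3 and 16.9 CPM in the ileum and from 31.7, 24.8 and 29.0 CPM to 18.4, 18.4 and 16.8 CPM in the duodenum. Its interaction was -2.01 ± 0.22 (adjusted p = 4.9e-05), and the regions overlapped at week 3. With all 48 samples the adjusted p was 0.0674 for Ctsh and 0.0915 for Creg1.

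Of 26 genes that process foreign compounds, 21 were called rising in the ileum and 23 in the duodenum, with 1 called falling in each. Over all genes tested, 15.7% were called rising in the ileum and 9.85% in the duodenum. Ces2c, a carboxylesterase, rose by 6.05 ± 0.26 in the ileum, from 4.29, 3.84 and 4.41 CPM to 198, 339 and 294 CPM. In the duodenum it rose by 3.65 ± 0.23, from 31.5, 22.5 and 32.6 CPM to 356, 415 and 319 CPM. The interaction was 2.40 ± 0.30 (adjusted p = 0.000119, or 0.0672 with all 48 samples). Cyp2d26, a cytochrome P450, had an interaction of 3.60 ± 0.52 (adjusted p = 0.000724) and is taken up again for its timing. Gstm1, a glutathione transferase, had a negative one, -1.65 (adjusted p = 0.026), which was lost in 9 of the 12 single-library removals (all but duodenum week 3 number 3, ileum week 2 number 1 and ileum week 3 number 2).
Goblet cell genes were called rising in 10 of 11 cases in the ileum and 6 of 11 in the duodenum, beside the same shares of all genes. Zg16, a lectin that goblet cells secrete into mucus, went from 40.7, 24.5 and 37.0 CPM to 1489, 1707 and 1320 CPM in the ileum and from 183, 82.3 and 89.8 CPM to 952, 992 and 794 CPM in the duodenum. The order of the regions turned over without overlap, and the interaction was 2.52 ± 0.43 (adjusted p = 0.00215, or 0.317 with all 48 samples). Muc3, a membrane mucin of the brush border, rose more in the duodenum, by 4.77 ± 0.29 against 3.12 ± 0.27 in the ileum. Its interaction of -1.65 ± 0.36 (adjusted p = 0.0136) had an adjusted p of 0.0566 without duodenum week 2 number 3 and of 0.766 with all 48 samples.

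In 32 genes the step went in opposite directions, 14 falling in the ileum and rising in the duodenum and 18 the reverse. The 14 included Sult6b2, a member of the sulfotransferase family, the glutathione transferase Gsta2, the glucuronosyltransferase Ugt1a9 and the carbonyl reductase Cbr3. Gstm4, a further glutathione transferase, and Ugdh, which makes the donor of glucuronic acid, were also among them and are named after their values were seen, with interactions of -1.96 ± 0.30 (adjusted p = 0.000741) and -1.58 ± 0.25 (adjusted p = 0.000997). Reads of near-identical Gst genes, and of Ugt1a transcripts that share exons, are divided by a model in estimated counts, so the values of Gsta2, Gstm4 and Ugt1a9 are uncertain in that respect. Sult6b2 (chr6:142785204-142804502) had the largest interaction of the 32. It fell in the ileum from 22.6, 34.7 and 37.4 CPM to 1.44, 1.79 and 0.553 CPM. It rose in the duodenum from 2.50, 4.53 and 3.12 CPM to 204, 182 and 101 CPM. The interaction was -10.22 ± 1.15 (adjusted p = 0.000132), and at week 4 the samples had moved back towards each other, with 113, 12 and 113 CPM in the duodenum and 15.5, 3.26 and 27.9 CPM in the ileum.

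Gsta2 (chr9:78331018-78355788) fell in the ileum from 12.2, 15 and 16.6 CPM to 2.79, 0.612 and 0.968 CPM and rose in the duodenum from 1.31, 1.10 and 0.791 CPM to 4.66, 3.12 and 2.87 CPM. Its interaction was -5.06 ± 0.61 (adjusted p = 0.000101). Ugt1a9 fell from 4.63, 6.48 and 6.28 CPM to 3.19, 2.12 and 2.35 CPM in the ileum and rose from 2.43, 2.76 and 2.69 CPM to 8.16, 16.1 and 11.3 CPM in the duodenum. For both genes the ileum was above the duodenum at week 2 and below it at week 3, with no overlap. Ugt1a9 had an interaction of -3.34 ± 0.56 (adjusted p = 0.00192). Cbr3 met the definition, with -4.22 ± 0.93 (adjusted p = 0.0177), but its ileum samples overlapped between the ages. Its call was lost without duodenum week 2 number 3, ileum week 2 number 2 or 3, or ileum week 3 number 2, at an adjusted p of up to 0.0599, and was 0.0544 with no low-count filter.
Gpcpd1, a phosphodiesterase of phospholipid breakdown, was among the 6 genes with the smallest interaction p and was nearly level at week 2, with 44.3, 41.4 and 40 CPM in the duodenum and 45.8, 45.8 and 49.8 CPM in the ileum. At week 3 it had 115, 97.9 and 80.8 CPM in the duodenum and 41.1, 36.5 and 33.7 CPM in the ileum, and the interaction was -1.57 ± 0.19 (adjusted p = 8.27e-05).

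**Figure D4:**
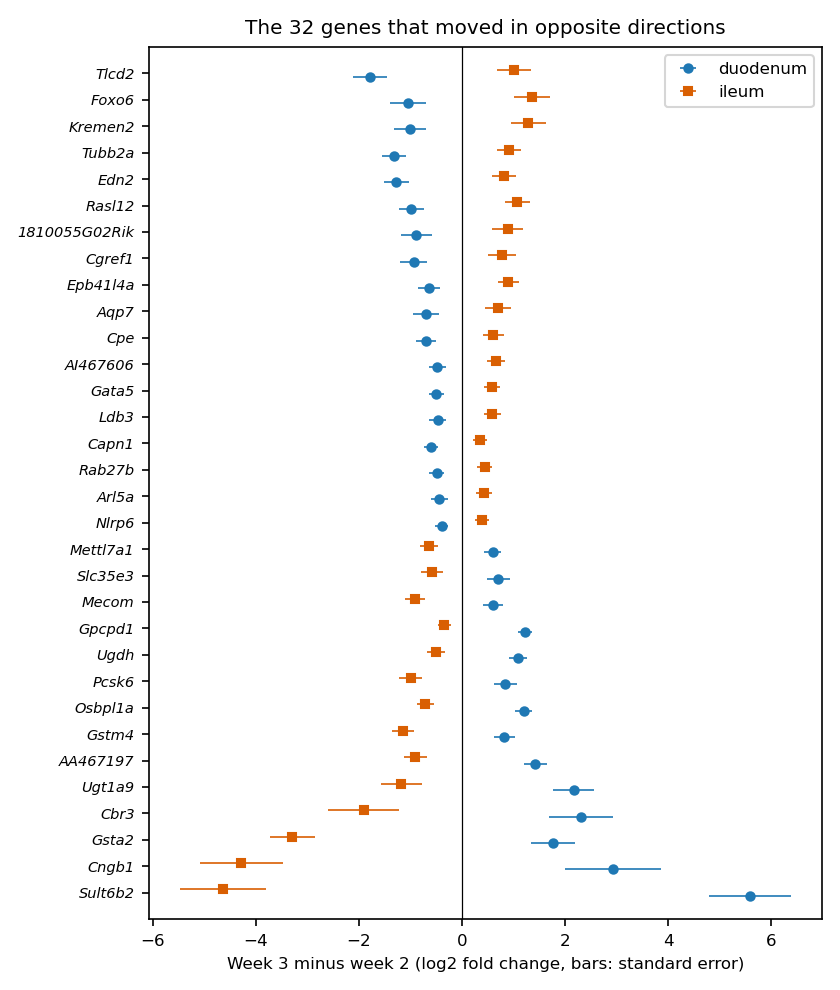
The 32 genes whose steps from week 2 to week 3 went in opposite directions, with the log2 change in each region as a point and its standard error as a bar. Steps run from -4.64 in the ileum to 5.59 in the duodenum for Sult6b2, and those of Nlrp6 are within 0.40 of 0 in both regions.

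Of the 18 genes that rose in the ileum and fell in the duodenum, 4 are described. Tlcd2, a membrane protein of the TLC domain family (chr11:75461715-75470899), fell in the duodenum from 61.5, 55.4 and 55.0 CPM to 10.3, 17.9 and 21.7 CPM and rose in the ileum from 9.15, 6.67 and 11.6 CPM to 11.9, 24 and 18.9 CPM. Widely separated at week 2, the regions overlapped at week 3, and the interaction was 2.79 ± 0.46 (adjusted p = 0.00205). Tubb2a, a beta tubulin (chr13:34074274-34078007), went from 104, 52.1 and 63.2 CPM to 29.1, 31.5 and 27.5 CPM in the duodenum. Its rise in the ileum was from 13.4, 7.35 and 11.4 CPM to 27.0, 18.0 and 15.1 CPM, with an interaction of 2.22 ± 0.33 (adjusted p = 0.000741). Edn2, the peptide endothelin 2, crossed: 5.81, 5.03 and 5.24 CPM fell to 1.87, 2.57 and 2.20 CPM in the duodenum, while 2.78, 3.76 and 3.03 CPM rose to 4.51, 6.78 and 5.53 CPM in the ileum. Its interaction was 2.09 ± 0.34 (adjusted p = 0.00129). Foxo6, a forkhead transcription factor, went from 3.38, 4.00 and 2.91 CPM to 1.94, 1.44 and 1.54 CPM in the duodenum and from 2.67, 1.87 and 2.19 CPM to 3.51, 6.45 and 7.28 CPM in the ileum. It had an interaction of 2.41 ± 0.49 (adjusted p = 0.00921).
The smallest of these interactions belonged to Nlrp6, an innate immune sensor of the epithelium, at 0.79 ± 0.19 (adjusted p = 0.0271). With the replicate block it was 0.78 with an adjusted p of 0.068, and the call was also lost in 8 of the 12 single-library removals (all but duodenum week 2 number 2, duodenum week 3 number 3 and ileum week 3 number 1 and 3). Aqp7, a water and glycerol channel, was at 1.39 ± 0.36 (adjusted p = 0.0442), and its call was lost in 10 of the 12 removals (all but duodenum week 2 number 2 and ileum week 3 number 1), with values of 1.06 to 1.49.

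**Figure D5:**
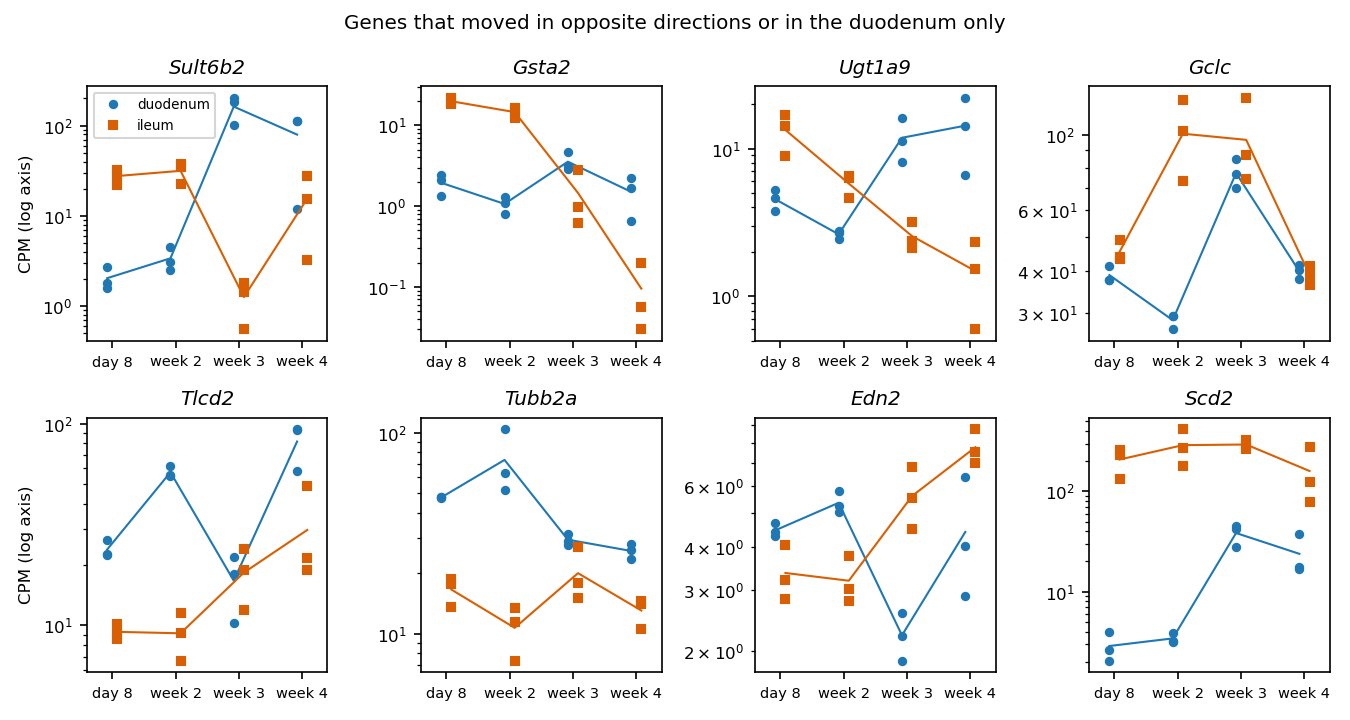
CPM of 8 genes on a log axis against age, with each sample as a point and lines through the group means. Sult6b2, Gsta2 and Ugt1a9 are higher in the ileum at week 2 and in the duodenum at week 3; Tlcd2, Tubb2a and Edn2 fell in the duodenum, and Gclc and Scd2 rose there while their ileum samples overlapped between the ages.

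Of the 69 genes that changed in the ileum only, Slc51b is described with the bile acid genes. Rarres1 fell from 16.4, 23.4 and 17.3 CPM to 1.87, 0.471 and 0.645 CPM in the ileum and was below 0.22 CPM in all 6 duodenum samples. A change in the duodenum could hardly be seen at that level, so no size is given for its interaction (adjusted p = 0.00664, or 0.0531 without duodenum week 3 number 1). Afp, alpha-fetoprotein, a serum protein of fetal liver and gut (chr5:90490737-90508907), fell from 44.0, 45.5 and 33.2 CPM to 3.63, 4.75 and 4.89 CPM in the ileum. Its duodenum samples overlapped, with 28.4, 29.8 and 25.4 CPM and then 14.2, 21.0 and 26.3 CPM, and the interaction was -2.77 ± 0.52 (adjusted p = 0.00666). Cldn8, a claudin that seals tight junctions (chr16:88560828-88563183), fell from 52.1, 75.6 and 74.5 CPM to 16.2, 11 and 7.28 CPM in the ileum and stayed between 1.20 and 3.44 CPM in the duodenum. The interaction was -2.67 ± 0.48 (adjusted p = 0.00412). Gsta3, a further glutathione transferase, fell from 21.0, 24.4 and 27.1 CPM to 5.86, 6.07 and 3.46 CPM in the ileum, beside 10.6, 8.01 and 6.30 CPM and then 8.69, 12.8 and 9.95 CPM in the duodenum. It had -2.57 ± 0.36 (adjusted p = 0.000288).
Among the rises, Mroh7 went from 2.17, 1.91 and 2.51 CPM to 7.26, 11.4 and 16.5 CPM in the ileum and stayed between 0.470 and 0.692 CPM in the duodenum, an interaction of 2.34 ± 0.48 (adjusted p = 0.00954). The larger interactions of Ly6d, 4.70 ± 1.03 (adjusted p = 0.0175), and Susd2, 3.10 ± 0.70 (adjusted p = 0.0254), had ileum samples at week 3 that ranged from 3.67 to 15.6 CPM and from 48.8 to 193 CPM. Ly6d had a mean of only 0.739 and 0.534 CPM in the duodenum at the 2 ages. The Ly6d call was lost without duodenum week 2 number 1 or 3, duodenum week 3 number 2 or 3, or ileum week 2 number 1 or 3, with values of 4.18 to 4.66. That of Susd2 was lost without duodenum week 2 number 1, duodenum week 3 number 1 or 3, any ileum sample of week 2, or ileum week 3 number 2, with values of 2.58 to 3.28. With all 48 samples the adjusted p was 0.533 for Rarres1, 0.214 for Afp, 0.449 for Cldn8 and 0.291 for Mroh7, whereas Slc51b and Gsta3 were called in every alternative run.

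The 25 genes that changed in the duodenum only included Scd2, a stearoyl-CoA desaturase that makes monounsaturated fatty acids (chr19:44293674-44306864). It rose there from 3.16, 3.22 and 3.87 CPM to 45.6, 27.9 and 41.7 CPM. In the ileum it was high at both ages, with 179, 418 and 270 CPM and then 329, 267 and 284 CPM, so the duodenum stayed below the ileum throughout. The interaction was -3.46 ± 0.61 (adjusted p = 0.00412). Gclc, the catalytic subunit of the rate-limiting enzyme of glutathione synthesis (chr9:77754535-77794485), rose in the duodenum from 26.9, 29.5 and 29.4 CPM to 85.0, 76.5 and 70.0 CPM. The ileum had 73.1, 102 and 127 CPM and then 128, 87.1 and 74.2 CPM. The interaction was -1.49 ± 0.24 (adjusted p = 0.00134), and that of the step from day 8 to week 2 was 1.59 ± 0.24 (adjusted p = 0.00891), so a regional gap that had opened by week 2 was closed at week 3. Both interactions use the week 2 samples, which lowers one as it raises the other. The call at the step from day 8 to week 2 was not followed through the alternative fits.
Dennd4c, an activator of a Rab GTPase (chr4:86748555-86850603), fell in the duodenum from 223, 186 and 201 CPM to 90.1, 83.3 and 93.1 CPM. Its ileum samples went from 80.2, 65.6 and 74.1 CPM to 90.0, 88.3 and 80.7 CPM, a change of 0.24 ± 0.12 that was not called (adjusted p = 0.132). The regions overlapped at week 3, and the interaction was 1.43 ± 0.17 (adjusted p = 7.27e-05). With all 48 samples the adjusted p was 0.262 for Scd2, 0.0754 for Gclc and 0.0615 for Dennd4c. Acox2, a peroxisomal oxidase of branched fatty acids and bile acid intermediates, rose (interaction -1.64, adjusted p = 0.0177), as did Tmem86b, a lysoplasmalogen hydrolase (-1.13, adjusted p = 0.045). The falls included Mgat4c (2.20, adjusted p = 0.0316), Ppp1r16b (1.94, adjusted p = 0.0182) and Mfhas1 (1.63, adjusted p = 0.0213). With all 48 samples the adjusted p was 0.372 for Acox2, 0.635 for Tmem86b and 0.501 for Mgat4c, and for Mgat4c it was 0.106 with no low-count filter. These 5 calls were also lost on removal of single libraries, with an adjusted p of at most 0.134. They were duodenum week 2 number 2 or 3, duodenum week 3 number 1 or 2 or ileum week 2 number 3 for Acox2, and duodenum week 2 number 1, duodenum week 3 number 1, ileum week 2 number 2 or ileum week 3 number 3 for Ppp1r16b. For Mfhas1 they were duodenum week 2 number 1, duodenum week 3 number 2 or 3, ileum week 2 number 1 or 2, or ileum week 3 number 1. For Tmem86b 10 of the 12 removals did so (all but ileum week 3 number 2 and 3) and for Mgat4c 11 (all but duodenum week 3 number 1). For Tmem86b the replicate block gave -1.16 with an adjusted p of 0.0797.

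Few genes met the definition used here for switching earlier in 1 region, which required both regions to change in the same direction over 2 neighbouring steps, the earlier region to change at the first, and the interactions of the steps to be called with opposite signs. It asks nothing of the later region at the second step, so it also takes genes that did not reach a later level first. The step from day 8 to week 2 differed between the regions for 47 genes (0.236%) and that from week 3 to week 4 for 362 (1.82%). The count of 47 fell to 2 without ileum day 8 number 3 and to 3 with all 48 samples. Calls of single genes at the step from day 8 to week 2 were not followed through the alternative fits. Earlier in the duodenum were 4 genes (0.0201% of those tested): Sis, 1700016C15Rik and Aspa by week 2 and AA467197 by week 3. With the replicate block there were 8. Sis had risen in the duodenum from 24.1, 20.6 and 23.2 CPM at day 8 to 158, 115 and 124 CPM at week 2, while the ileum had 44.4, 21.1 and 27.9 CPM at day 8 and 16.3, 21.4 and 22.8 CPM at week 2. The interaction of that step was -3.17 ± 0.42 (adjusted p = 0.00122). Aspa, which splits N-acetylaspartate (chr11:73304992-73329596), went in the duodenum from 4.46, 3.38 and 3.58 CPM at day 8 to 9.65, 7.72 and 7.54 CPM at week 2, then to 79.4, 105 and 93.0 CPM. In the ileum it went from 7.98, 5.93 and 6.06 CPM to 4.58, 5.21 and 5.47 CPM and then to 139, 181 and 214 CPM. Its interaction was -1.50 at the first step (adjusted p = 0.028) and 1.65 ± 0.28 at weaning (adjusted p = 0.00192). AA467197, a small gene also known as Nmes1 (chr2:122636986-122641191), rose in the duodenum at week 3, from 3.41, 2.52 and 2.67 CPM to 7.41, 10.4 and 5.23 CPM, and fell in the ileum, from 6.90, 8.14 and 7.12 CPM to 4.59, 4.19 and 3.04 CPM. By week 4 it had 59.8, 56.9 and 54.9 CPM in the duodenum and 91.7, 78.7 and 89.7 CPM in the ileum. The interaction was -2.32 ± 0.32 at weaning (adjusted p = 0.000294) and 1.55 at the next step (adjusted p = 0.011).

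For the ileum, 16 genes (0.0804%) met it. Lox and Abhd3 had fallen by week 2 in the ileum and fell at week 3 in the duodenum. Abhd3, a phospholipase of the alpha/beta hydrolase family, had 95.3, 59.5 and 85.6 CPM in the ileum at day 8 and 44.7, 19.9 and 33.8 CPM at week 2, beside 124, 112 and 136 CPM and 233, 163 and 188 CPM in the duodenum. At week 3 the duodenum had dropped to 44.2, 50.8 and 45.7 CPM and the ileum had 19.6, 28.8 and 25.0 CPM. Its interaction was -1.94 ± 0.32 at the earlier step (adjusted p = 0.0138) and 1.63 ± 0.32 at weaning (adjusted p = 0.00666, or 0.0757 with all 48 samples). The other 14 genes had interactions of one sign at week 3 and of the opposite sign at week 4. Cyp2d26 had 7.38, 4.03 and 7.21 CPM in the ileum at week 2, 208, 346 and 284 CPM at week 3, then 109, 31.5 and 37.6 CPM at week 4. In the duodenum it had 125, 59.8 and 88.5 CPM, then 352, 374 and 290 CPM, then 285, 363 and 384 CPM. The second interaction was -2.26 ± 0.50 (adjusted p = 0.0262). Cyp2d26 was already higher in the duodenum at week 2, and its ileum samples were lower at week 4 than at week 3 while the duodenum samples overlapped, so it was not a gene that rose first in the ileum.

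Slc16a5, a monocarboxylate transporter (chr11:115462474-115474398), rose in the ileum from 3.12, 2.53 and 2.09 CPM to 90.3, 105 and 108 CPM and then had 99.9, 69.9 and 53.0 CPM. Duodenum samples went from 10.7, 9.14 and 7.99 CPM to 72.4, 78.4 and 73.8 CPM and on to 102, 137 and 147 CPM. The interaction was 2.27 ± 0.27 at weaning (adjusted p = 8.56e-05, or 0.113 with all 48 samples) and -1.23 at the next step (adjusted p = 0.0162). Tm4sf4, a tetraspan membrane protein of liver and intestine, peaked at week 3 in both regions, at 857, 1045 and 755 CPM in the ileum and 436, 334 and 313 CPM in the duodenum. It had 31.6, 34.7 and 36.8 CPM and 78.1, 50.4 and 58.1 CPM at week 2, and 88.4, 37.3 and 98.1 CPM and 112, 148 and 141 CPM at week 4. Its interactions were 2.15 ± 0.34 (adjusted p = 0.00125) and -2.14 (adjusted p = 0.00227), from a higher peak in the ileum at the same age and not from an earlier one. Mroh7 is the clearest case of a later duodenal rise, with 3.60, 5.51 and 3.86 CPM in the duodenum at week 4, 0.493, 0.515 and 0.692 CPM at week 3, and an interaction of -3.55 ± 0.45 at that step (adjusted p = 0.00047). Without ileum week 4 number 1, 45 genes met the definition for the ileum and 7 for the duodenum. Of the 20 genes named by the full data, Tm4sf4 and Sfn then no longer met the definition. Cyp2d26, Slc16a5 and Mroh7 did, with interactions at the week 4 step of -2.88, -1.34 and -3.76.

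Some well-known genes of intestinal maturation had no called interaction. Lct, lactase, had an interaction of 0.13 ± 0.82 (adjusted p = 0.987), with steps of -0.54 ± 0.58 in the ileum and -0.67 ± 0.58 in the duodenum that were not called either. Cubn, the receptor for vitamin B12 bound to intrinsic factor, had -0.10 ± 0.39 (adjusted p = 0.974) and was higher in the ileum at both ages, by 1.33 ± 0.28 and 1.22 ± 0.28. Lyz1, Paneth cell lysozyme, rose by 0.92 ± 0.32 in the ileum and 1.18 ± 0.32 in the duodenum, with an interaction of -0.26 ± 0.45 (adjusted p = 0.913). Apoa4, an apolipoprotein of chylomicrons, had 0.36 ± 0.62 (adjusted p = 0.911). The errors of Lct and Apoa4 leave room for differences of well over 1 on the log2 scale.

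Of the 15 hormone genes of enteroendocrine cells, 6 had an interaction with an unadjusted p under 0.05. Pyy, the ileal satiety hormone, was the called one, at 2.87 ± 0.63 (adjusted p = 0.0173). It fell in the duodenum from 5.95, 2.69 and 3.76 CPM to 0.374, 0.137 and 0.461 CPM and had 10.7, 17.8 and 15.5 CPM and then 8.10, 9.37 and 9.22 CPM in the ileum, a change that was not called (adjusted p = 0.17). With the replicate block the interaction was 2.86 with an adjusted p of 0.0569. Removal of duodenum week 2 number 1, duodenum week 3 number 1 or 2, or ileum week 2 number 1 also ended the call. Among epithelial structural genes, Krt19, a keratin, rose from 163, 191 and 185 CPM to 966, 1060 and 799 CPM in the ileum and from 354, 351 and 364 CPM to 785, 599 and 662 CPM in the duodenum, an interaction of 1.45 ± 0.20 (adjusted p = 0.000317, or 0.197 with all 48 samples). Its rise accompanies that of the summed epithelial markers, which rose in both regions, and the part of epithelial content in the interactions was not tested. G6pc, the phosphatase that releases free glucose, was the called member of the sugar list, at -1.74 ± 0.40 (adjusted p = 0.026). Its call was lost, with values of -1.73 to -1.64, without duodenum week 2 number 2 or 3, duodenum week 3 number 2 or 3, or ileum week 2 number 1 or 3. Slc11a2, the iron transporter of the brush border, had -2.00 ± 0.51 (adjusted p = 0.0435). Its call was lost in 10 of the 12 single-library removals (all but duodenum week 3 number 2 and 3), with values of -2.18 to -1.07. It was also lost with no low-count filter (adjusted p = 0.135), with the 12 samples alone (0.159) and with all 48 (0.114). Its duodenum samples at week 3 had 348, 111 and 75.0 CPM, and the value of -1.07 is the one without the first.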

How the data were processed

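Per the labels, total RNA was sequenced by Illumina NovaSeq. The authors deposited estimated counts, already whole numbers, for 54532 Ensembl gene identifiers. Per the file's own name, tximport summarised them, and the submitters' processing notes name STAR 2.6.1d, Salmon 0.14.2, DESeq2 1.30.1 and the build mm10, with no order. Estimated counts assign reads shared by near-identical genes by a model. The authors also deposited a normalized signal for 40 samples, of which only the sample names were used here. Symbols and coordinates came from GENCODE M21 (54409 identifiers matched) and promoters from RefSeq on GRCm38.p6. The tested genes had 19885 distinct names (the symbol, or the identifier where there was none), of which 13066 were matched to a promoter. No reads were realigned. One result is not reported here.

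The tests used edgeR 4.0.16 under R 4.3.3 (filterByExpr, TMM scaling, robust quasi-likelihood fit, 1 mean per group) on the 24 samples of day 8, week 2, week 3 and week 4. Ages before day 8 were left out because, in an earlier analysis, samples labelled day 6 went against their labels. Each contrast had its own Benjamini-Hochberg adjustment over all genes tested, and standard errors are the log2 value divided by the square root of F. The procedure was tested on simulated data. The genes named were a panel of 12 genes, up to 4 called genes per list by smallest p, the 4 largest per class and direction with a mean of at least 5 CPM in 1 group, and the 6 smallest p. Members, lists and tests were chosen with earlier results of these data known, and the lists support nothing by themselves. Alternatives were relative log expression (RLE) size factors, other count filters, DESeq2 1.42.0, other sample sets, a sex index, a replicate block and each library left out. One more, leaving out ileum week 4 number 1 from every result, was chosen after seeing the data. The replicate block was not a single model. Its interactions came from a model with a term for each age and number. Its steps within a region came from a model with a term for each number, shared by all ages. Class counts with the replicate block mix both models.

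Duodenum and ileum samples of one age share numbers in the labels. Whether they share a mouse is not stated. The deviations of same-numbered samples from their group means correlated at 0.107 to 0.545 in all 6 pairs of week 2 and week 3, and all 6 had the same sex pattern, so the numbers were taken to pair these samples. The main fit did not use this pairing, so its p-values treat the samples as independent. Only the replicate block used it, and 322 of the 412 calls were shared with that fit. Over the 12 pairs of the 4 ages, 7 exceeded 0.1, with a range of -0.178 to 0.545. The sex pattern, meaning whether Xist or Ddx3y was higher, was not even over the ages. Ddx3y was higher in number 3 at week 2 and in numbers 2 and 3 at week 3. Xist was higher in the other samples of these ages and in all samples of day 8 and week 4. Steps between ages within a region therefore partly mix sex with age.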

Additional observations from a re-analysis of the deposited data

Results flagged for a closer look

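The step from week 2 to week 3 differed between ileum and duodenum, by the test of the difference itself, for 412 genes, the subject of the report. The same test of the neighbouring steps gave 47 genes for day 8 to week 2 and 362 for week 3 to week 4. The count for day 8 to week 2 was 108 with the replicate block and 96 without ileum week 4 number 1. The count for week 3 to week 4 was 1319 without that library. For the step from day 8 to week 2, Ppef1 had the smallest p among genes with a symbol and at least 5 CPM in a group, with an interaction of -6.41 ± 0.73 (adjusted p = 0.000507). Its level fell from 8.24 ± 1.81 CPM to 0.99 ± 0.55 CPM (mean ± SD, n = 3) in the ileum and went from 0.30 ± 0.06 CPM to 3.03 ± 1.57 CPM in the duodenum. For the step from week 3 to week 4 the smallest p of such genes belonged to Cmpk2, a nucleotide kinase induced by interferon, at -2.44 ± 0.26 (adjusted p = 6.9e-05). It went from 74.7 ± 12.5 CPM to 52.5 ± 13.4 CPM in the ileum and from 29.2 ± 3.90 CPM to 112 ± 21.5 CPM in the duodenum (mean ± SD, n = 3). Oasl1, a further gene induced by interferon, had -2.17 ± 0.29 (adjusted p = 0.000532). Upp1, uridine phosphorylase, had the opposite sign at 2.52 ± 0.32 (adjusted p = 0.00047), from 3.18 ± 0.95 CPM to 177 ± 45.4 CPM in the ileum and from 11.7 ± 1.96 CPM to 114 ± 28.6 CPM in the duodenum (mean ± SD, n = 3). These neighbouring steps share week 2 or week 3 samples with the step of the report.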

How the results depend on the processing

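Counts of genes depended on the fit. The weaning interaction had 773 genes with DESeq2, 113 with all 48 samples and 672 with the 40 samples. The earlier step had 22 (RLE), 87 (mean count of at least 10), 344 (DESeq2), 3 (48 samples), 158 (40 samples) and 108 (replicate block), and the later step 960 (DESeq2), 61 (48 samples) and 550 (40 samples). Ileum only had 125 (DESeq2), 23 (48), 118 (40) and 117 with no minimum change, and duodenum only 42, 6 and 41 in the same fits and 45 both with no minimum change and with no limit on the other region. Opposite directions had 19 with no low-count filter and 11 with 48 samples, and same direction 310 (DESeq2), 262 (12 samples), 38 (48) and 263 (40). The definition of earlier in the duodenum was met by 10 (DESeq2), 1 (48) and 8 (replicate block), earlier in the ileum 45 (DESeq2) and 3 (48).

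Leaving out 1 library gave 209 to 602 genes for the weaning interaction (lowest without ileum week 2 number 2), 5215 to 6877 for the ileum step, 3511 to 5075 for the duodenum step, 2 to 96 for the earlier step (lowest without ileum day 8 number 3) and 141 to 1319 for the later step (lowest without duodenum week 4 number 3). It gave 37 to 105 genes in the ileum only, 11 to 32 in the duodenum only, 17 to 38 in opposite directions, 82 to 260 in the same direction, 2 to 7 earlier in the duodenum and 7 to 45 earlier in the ileum. Each highest value is the fit without ileum week 4 number 1. The lowest were without duodenum week 2 number 3 for ileum only, opposite and same direction, and without number 1 of that group for duodenum only.

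Of the 62 called genes picked by the naming rule, 19 kept the call in every alternative, 43 lost it in at least 1, and 0 reversed. The reversals were in uncalled genes. Over the libraries left out, Lct ran from -0.0822 to 0.238, Fcgrt from -0.124 to 0.531 and Apoa4 from -0.0957 to 0.567, each lowest without duodenum week 2 number 1, and Lct was at -0.00957 without ileum week 2 number 2. The replicate block gave 404 genes, 322 of them shared, and changed the call of Nlrp6, Pyy and Tmem86b but of no other gene picked by that rule. Anpep, Gstm4, Ugdh, 1700016C15Rik and Lox were not followed through the alternatives. Neither were the calls of single genes at the step from day 8 to week 2. Further calls lost with all 48 samples were those of G6pc (adjusted p = 0.069), Gstm1 (0.254), Nlrp6 (0.754), Pyy (0.0556) and Aqp7 (0.0795). With no low-count filter G6pc (0.0697), Hmgcs1 (0.0558), Gstm1 (0.0783), Nlrp6 (0.085), Pyy (0.0574), Aqp7 (0.0897), Ly6d (0.063) and Susd2 (0.0626) were not called. Hmgcs1 also lost its call with the 12 samples, the 40 samples and the sex index (at most 0.071), Aqp7 with the 12 samples (0.0994) and RLE (0.0506), Nlrp6 with the 40 samples (0.136) and Tmem86b with RLE (0.053). The sex index gave 381 genes, 372 of them shared, and RLE 409, 396 shared. With 3 samples a group, low genes such as Fgf15 and Fabp6 in the duodenum give no usable fold. Causes were not tested.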
